A study of Mus musculus with 6 samples.

Results

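The tumour necrosis factor (TNF) superfamily ligands, their receptors and the Traf adaptor proteins were taken by gene symbol from the annotated ATAC-seq peak table, namely every symbol starting with Tnfsf or Tnfrsf together with Tnf, Lta, Ltb, Ltbr, Cd40, Cd40lg, Fas, Fasl, Cd27, Cd70, Ngfr, Traf1 to Traf5 and Traf7. The selection held 48 of 18755 annotated genes, of which 17 encode ligands, 25 receptors and 6 adaptors. To these genes 291 of 92864 peaks were annotated, and none to Cd40lg. Chromatin accessibility was compared between BMDM, labelled as bone marrow derived macrophages and sorted as F4/80+CD11b+CD45+LY6Clo/-LY6G-CD49dhigh, and MG, labelled as microglia and sorted as F4/80+CD11b+CD45loLY6Clo/-LY6G-CD49dlo/-. Each group had 3 libraries. All cells came from orthotopic, isogenic SB28 tumours, grown from a mouse glioma line in brains of WT genotype, and no tumour-free brain is among the groups. The names of the groups rest on surface markers in the sort, and the labels give neither age, sex nor strain and do not tie libraries to animals. The p-values therefore reflect spread among libraries that may be technical.

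TNF superfamily ligands are mostly membrane-bound trimers that can be shed, and each binds 1 or a few receptors on a neighbouring cell. Receptors with a death domain, such as Fas and Tnfrsf1a, can start apoptosis or necroptosis, whereas receptors such as Cd40, Tnfrsf1b and Tnfrsf4 recruit Traf adaptors that lead to NF-kB and MAP kinase signalling. In the brain, microglia and infiltrating macrophages are known sources of TNF, and ligands such as Tnfsf4 and Tnfsf9 on antigen-presenting cells costimulate T cells. ATAC-seq reads mark DNA that the Tn5 transposase can reach; they measure neither RNA nor protein.

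Reads in peaks ranged from 4910448 to 19727511 in BMDM libraries and from 12531808 to 23601865 in MG libraries, with a median of 20 to 66 reads per peak in BMDM and 42 to 90 in MG. A count of 3 reads corresponded to 1.94 to 5.95 normalized counts in BMDM and 1.64 to 2.92 in MG, counting error only. A gene's count is the sum of normalized counts over the peaks annotated to it within 100 kb of its start site. The median gene was lower in BMDM than in MG by a log2 difference of -0.27 and the median peak by -0.14, so differences are given as log2(normalized count + 1), BMDM minus MG, relative to the median gene or peak, ± SE. The adjusted p-values are those of the unshifted difference, and calls of the main fit that depend on the shift are named or counted. Across all genes, MG 1 lay closer to BMDM 1 (root mean square log2 distance 0.77) than to MG 2 (1.11), and BMDM 3 lay closer to MG 3 (0.70) than to BMDM 1 (0.81). Over the 48 members MG 1 was about as far from BMDM 1 (1.06) as from MG 2 (1.05). MG 1 was nearest to MG 3 over all genes (0.75) and over the members (0.72). BMDM 3 was nearest to BMDM 2 in both (0.67 and 0.42). Of the markers, 5 of 8 tested monocyte and macrophage genes were called higher in BMDM, among them Itga4, which encodes the sort marker CD49d. Of 10 microglia genes 2, Sall1 and Olfml3, were called higher in MG. After centring these counts were 6 and 1, without Olfml3 (adjusted p = 0.0626). Of 13 neural and glial markers, 6 were called higher in MG, and 4 after centring. Their summed count was 5717 to 6465 in BMDM, against 8930, 17151 and 11352 in MG 1, 2 and 3, and their part in the results was not tested. In bulk libraries, fewer cells of a type and less signal per cell cannot be told apart.

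All gene-level calls among the members were ligand genes with more accessible chromatin in BMDM. In the gene fit 3 members passed the threshold (limma, Benjamini-Hochberg adjusted p under 0.05 over 18246 genes), all 3 of them ligands and all higher in BMDM: Tnfsf4, Tnfsf11 and Tnfsf14. This is 3 of 48 members, beside 2.14% of all genes called higher in BMDM. No member was called higher in MG, beside 3.51% of all genes. At an unadjusted p under 0.05, 14 members were higher and 2 lower in BMDM. Of all 18246 genes, 3992 passed that level in either direction, the number to set beside such gene counts below. After centring on the median gene 9 members passed as higher in BMDM, beside 3.61% of all genes, and none as higher in MG, beside 1.15%. The 6 added were Fasl, Tnfsf8, Tnfsf15, Tnfsf18, Tnfrsf8 and Tnfrsf26. The median relative difference was 0.92 over the 17 ligands, with 16 above 0, against 0.46 over the 25 receptors, with 17 above 0, and 0.31 over the 6 adaptors, with 5 above 0. Every BMDM library lay above every MG library for 9 ligands, 5 receptors and no adaptor, 14 members in all, beside 6.87% of all genes. The opposite order held for Ltbr and Traf4, beside 21.5% of all genes. The heat map by library shows these values for every member.

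**Figure D1:**
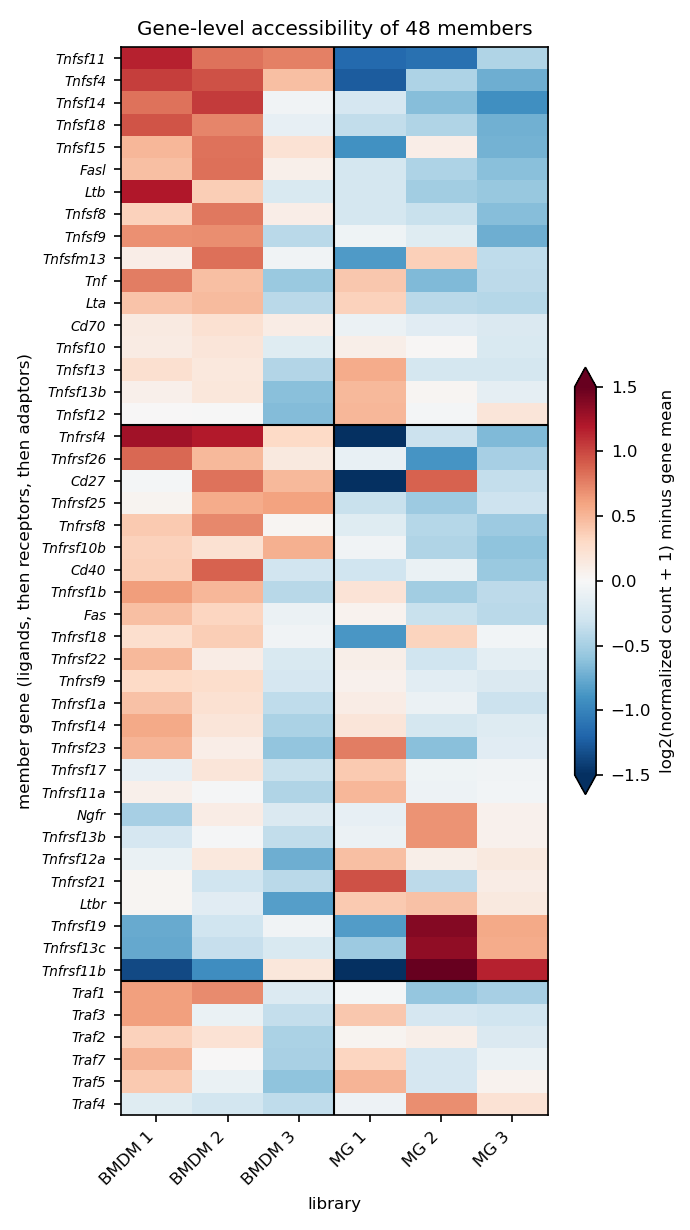
Gene-level log2(normalized count + 1) of the 48 members minus each gene's mean over the 6 libraries, with BMDM libraries left of MG libraries and rows grouped as ligands, receptors and adaptors. The ligands at the top of the first block are high in all 3 BMDM libraries, and Tnfrsf19, Tnfrsf13c and Tnfrsf11b are high in MG 2 and MG 3 but not in MG 1.

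**Figure D2:**
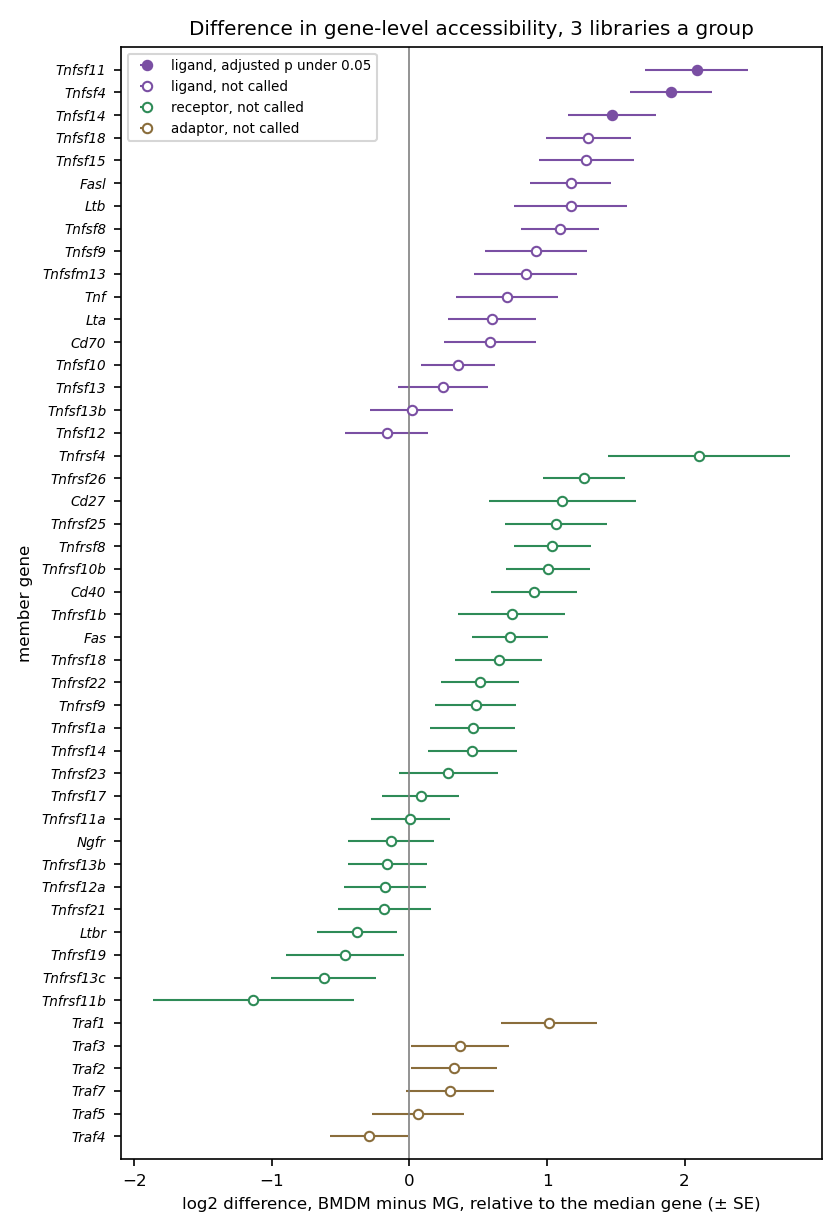
Relative log2 difference, BMDM minus MG, of each member gene with its SE (3 libraries a group), coloured by role, with filled symbols for an adjusted p under 0.05. The filled symbols are Tnfsf11, Tnfsf4 and Tnfsf14, and 38 of 48 members lie above 0.

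Tnfsf4 encodes OX40 ligand, a costimulator of T cells. Its gene count was 841, 796 and 560 in BMDM 1, 2 and 3, against 171, 297 and 246 in MG 1, 2 and 3. The groups did not overlap, and the lowest BMDM library was above the highest MG library. The relative difference was 1.90 ± 0.30 (limma adjusted p = 0.00725). Tnfsf11 encodes RANKL, the cytokine that drives osteoclast formation from myeloid precursors. Its count was 171, 135 and 129 in BMDM libraries, against 33.3, 34.4 and 55.4 in MG libraries. Again no library of a group reached the other group, with a relative difference of 2.09 ± 0.37 (adjusted p = 0.0119). Tnfsf14 encodes LIGHT, a ligand of the lymphotoxin beta receptor and of HVEM. Its count was 930, 1096 and 513 in BMDM libraries, against 447, 339 and 281 in MG libraries. BMDM 3 was the lowest of its group and close to MG 1, and the relative difference was 1.47 ± 0.32 (adjusted p = 0.0371).

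Leaving out BMDM 1 or BMDM 2 lost these calls while the differences stayed near their size. Without BMDM 1 the adjusted p was 0.0503 for Tnfsf4, 0.0847 for Tnfsf11 and 0.155 for Tnfsf14, and without BMDM 2 it was 0.0951, 0.102 and 0.231 in the same order. The relative differences moved little, to 1.87 and 1.89 for Tnfsf4, 2.05 and 2.19 for Tnfsf11, and 1.46 and 1.31 for Tnfsf14; across all genes, 79 passed toward BMDM and 102 toward MG without BMDM 1, and 0 without BMDM 2, where 2845 had an unadjusted p under 0.05. Without MG 1 all 3 were called, with relative differences of 1.60, 1.88 and 1.57. Tnfsf14 was also not called without MG 3 (adjusted p = 0.149), against MG 1 as the only MG library (0.518) or under voom (0.0689), and Tnfsf4 was not called with peaks within 10 kb only (1.40, adjusted p = 0.0656).

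Tnfsf4 lies on chromosome 1 beside Tnfsf18, which encodes GITR ligand, and Fasl, which encodes Fas ligand, the trigger of Fas-mediated apoptosis. The 42 peaks annotated to these 3 genes spanned 477.6 kb, and no other gene had a peak that lay wholly within that span. Peak by peak, 30 of 287 tested member peaks (10.5%) were called higher in BMDM, beside 5.33% of all 87944 tested peaks. None was called higher in MG, beside 1.54%. At an unadjusted p under 0.05, 91 member peaks were higher and 9 lower in BMDM, beside 21915 of all 87944 peaks in either direction. Of these 30 peaks, 13 belonged to the 3 neighbouring genes, and the remaining 17 were among 247 tested peaks of the other members (6.88%). Tnfsf4 had 5 called peaks of 14, Tnfsf18 had 2 of 11 tested and Fasl had 6 of 15 tested.

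The Fasl start-site peak (mm10, chr1:161787918-161788632) showed the highest relative difference of the 30 called peaks. It held 39.7, 71.9 and 88.8 normalized counts in BMDM libraries (20, 111 and 49 reads), against 2.38, 9.29 and 6.80 in MG libraries (3, 17 and 7 reads). The groups were well separated, although the MG counts were close to the floor of 3 reads in MG 1, and the relative difference was 3.45 ± 0.56 (adjusted p = 0.026). At the gene level, where 14 peaks are summed, the Fasl count was 1527, 1995 and 1185 in BMDM, against 934, 811 and 726 in MG. The gene-level difference was smaller, 1.17 ± 0.29, and was called only after centring (adjusted p = 0.0814 before and 0.0297 after).

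Other called Fasl peaks were intergenic. The peak 6066 bases upstream of the start site held 69.4, 99.7 and 68.8 counts in BMDM, against 11.9, 16.4 and 10.7 in MG (2.66 ± 0.37, adjusted p = 0.026). It was the only member peak found in all 3 of the authors' BMDM peak lists and in none of the 3 MG lists; at an overlap of at least 50%, or in stricter lists, there was none. In the opposite direction, 4 member peaks were in all 3 MG lists and no BMDM list. There were 9 at an overlap of at least 50% and 5 in stricter lists. The BMDM lists held 33982, 52631 and 17741 peaks, and the MG lists 50217, 70739 and 52566. The part of list size or library depth in these counts was not tested, and the share over all peaks was not counted. The peak 15828 bases upstream (2.91) and those 13057, 37471 and 117219 bases downstream of the start site (3.00, 1.92 and 2.69) also separated the groups.

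At Tnfsf4 the start-site peak (chr1:161394906-161395432) held 55.5, 65.4 and 27.2 counts in BMDM libraries, against 3.97, 12.6 and 10.7 in MG libraries. BMDM 3 was lowest of its group but above all MG libraries, and the relative difference was 2.49 ± 0.55 (adjusted p = 0.038). The largest of its called peaks by count lay 18221 bases upstream, with 282, 175 and 149 counts in BMDM, against 22.2, 66.7 and 48.6 in MG (2.33 ± 0.44, adjusted p = 0.0284). The called peaks 65766 and 16181 bases upstream and in the intron 11013 bases downstream differed by 2.44, 2.13 and 2.43. At Tnfsf18 both called peaks were upstream, 14426 and 11990 bases from the start site. The nearer one held 381, 227 and 161 counts in BMDM, against 79.3, 78.7 and 51.5 in MG (1.93 ± 0.38, adjusted p = 0.0301), and the farther one differed by 2.38. The Tnfsf18 gene count was 1281, 1113 and 612 in BMDM, against 516, 490 and 404 in MG; this was called only after centring (1.30 ± 0.31, adjusted p = 0.0596 before and 0.0219 after).

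**Figure D3:**
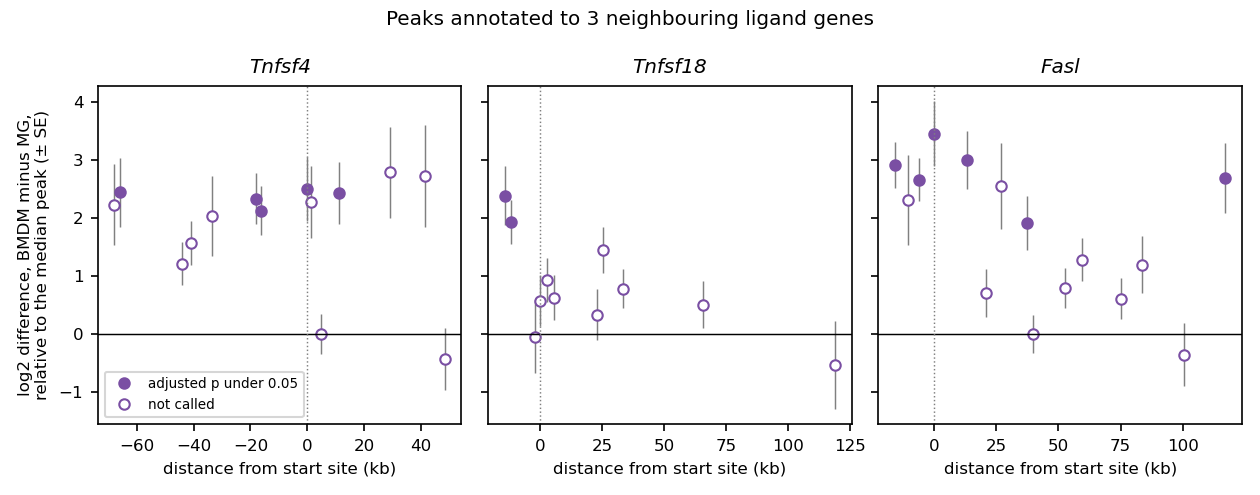
Relative log2 difference, BMDM minus MG, with its SE, of each tested peak annotated to Tnfsf4, Tnfsf18 or Fasl, plotted by distance from that gene's start site in kb, with filled symbols for an adjusted p under 0.05. Called peaks lie on both sides of the Tnfsf4 and Fasl start sites and upstream of Tnfsf18, and the Fasl start-site peak is highest at 3.45.

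Outside chromosome 1, 4 more ligand genes had called peaks. Tnfsf11 had 2: the promoter-class peak 607 bases downstream of the start site held 31.7, 52.4 and 34.4 counts in BMDM, against 1.59, 5.47 and 14.6 in MG (2.77 ± 0.69, adjusted p = 0.0486), and the intergenic peak 48648 bases upstream differed by 2.46. In MG 1 the promoter-class peak held only 2 reads. Tnfsf8, which encodes CD30 ligand, had 3 called peaks. Those in introns 14995 and 13814 bases downstream differed by 2.26 and 2.98 and the one 74129 bases upstream by 2.17, while its start-site peak was not called (1.41, adjusted p = 0.108). Tnfsf10 encodes TRAIL, an inducer of apoptosis. Its gene count was 748, 778 and 609 in BMDM, against 733, 697 and 585 in MG, and the groups overlapped (0.35, adjusted p = 0.884). Yet its intronic peak 5456 bases downstream held 23.8, 49.2 and 59.8 counts in BMDM, against 3.97, 12 and 4.86 in MG (2.68 ± 0.58, adjusted p = 0.0354). Tnfsf14 had 1 called peak, 21469 bases downstream (2.08, adjusted p = 0.0493), and its start-site peak was not called (1.09, adjusted p = 0.0996); all 7 of its peaks differed in the same direction, by 1.09 to 2.08.

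Tnf, the founding ligand, had a single large peak that covered its start site. It held 2251, 1806 and 897 counts in BMDM libraries, against 1746, 832 and 1005 in MG libraries. The groups overlapped, with BMDM 3 below MG 1 and MG 3, and as a gene Tnf differed by 0.71 ± 0.37 (adjusted p = 0.514). Its neighbours Lta and Ltb encode the lymphotoxins. Lta held 825, 847 and 462 counts in BMDM, against 776, 461 and 453 in MG (0.60, adjusted p = 0.571). Ltb was lower in level, with 173, 96.5 and 63.4 counts in BMDM, against 61.9, 51.4 and 49.6 in MG; the groups did not overlap, but BMDM 3 and MG 1 nearly met (1.17 ± 0.41, adjusted p = 0.21). Since each peak was annotated to 1 gene only, sites shared by these neighbouring genes cannot be divided between them.

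Other ligands were not called at the gene level. Tnfsf15, encoding the ligand TL1A, differed by 1.28 ± 0.35 and passed only after centring (adjusted p = 0.0951 before and 0.0422 after). Tnfsf9, encoding 4-1BB ligand, held 206, 208 and 96.0 counts in BMDM, against 122, 112 and 76.8 in MG (0.92 ± 0.37, adjusted p = 0.318). BMDM 3 lay below MG 1 and MG 2, so the groups overlapped. Tnfsf13b encodes BAFF, a survival factor for B cells. It held 563, 598 and 344 counts in BMDM, against 745, 544 and 486 in MG, a relative difference of 0.02 ± 0.30 (adjusted p = 0.647). Cd70, the ligand of Cd27, differed by 0.58 with no overlap between groups, and Tnfsf12, Tnfsf13 and the overlapping transcript Tnfsfm13 ranged from -0.17 to 0.85.

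Among receptor genes none was called, at an unadjusted p under 0.05 5 were higher and 2 lower in BMDM, and 4 held called peaks. Tnfrsf1b encodes TNFR2, the TNF receptor without a death domain. Its gene count over 15 peaks was 5235, 4811 and 2540 in BMDM, against 3900, 2365 and 2589 in MG, and the groups overlapped (0.74 ± 0.39, adjusted p = 0.501). Its start-site peak was close to equal, with 669, 589 and 319 counts in BMDM, against 572, 381 and 462 in MG (0.24 ± 0.36, adjusted p = 0.886). In contrast, an intronic peak 10483 bases downstream (chr4:145236055-145236387) held 113, 133 and 114 counts in BMDM, against 12.7, 23.5 and 18.5 in MG, with narrow spread in both groups (2.83 ± 0.35, adjusted p = 0.026). Peaks 10464 and 25858 bases upstream differed by 1.84 and 2.04. At Tnfrsf1b 3 of 15 peaks were thus called, and the start-site peak was not among them.

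Tnfrsf8 encodes CD30 and is the chromosomal neighbour of Tnfrsf1b. Its start-site peak held 47.6, 66.0 and 41.7 counts in BMDM, against 11.1, 14.2 and 10.7 in MG (2.14 ± 0.40, adjusted p = 0.0281), and a peak 26777 bases upstream differed by 2.88. Every BMDM library was above every MG library at both. The gene count, 738, 927 and 574 in BMDM against 494, 416 and 385 in MG, was called only after centring (1.04 ± 0.28, adjusted p = 0.116 before and 0.0424 after). Tnfrsf18 encodes GITR, the receptor of the Tnfsf18 product. Its start-site peak held 79.3, 82.2 and 65.2 counts in BMDM, against 21.4, 20.2 and 31.1 in MG (1.75 ± 0.34, adjusted p = 0.0304), and a promoter-class peak 2313 bases downstream differed by 1.89. Summed over its 4 peaks, the Tnfrsf18 groups overlapped, with 470, 506 and 379 counts in BMDM, against 215, 497 and 383 in MG (0.65, adjusted p = 0.513). That difference was 0.23 without MG 1 and 1.43 against MG 1 as the only MG library, and neither was called. Tnfrsf26 is one of a cluster of mouse receptors with Tnfrsf22 and Tnfrsf23. Its peak 2529 bases downstream differed by 1.58 (adjusted p = 0.0403), and its gene count of 740, 570 and 449 in BMDM, against 374, 219 and 288 in MG, was called only after centring (1.27 ± 0.30, adjusted p = 0.0598 before and 0.0214 after).

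The start sites called higher in BMDM and present in the RefSeq promoter table were those of Fasl, Tnfrsf8 and Tnfrsf18, and their upstream sequences are shown to let the regions behind these counts be read, beside that of Tnf, whose start-site peak was not called. Each is 250 bases ending at the base before the RefSeq start site, on the gene's strand (GRCm38.p6, the build mm10): Fasl chr1:161788496-161788745 (minus), Tnfrsf8 chr4:145315165-145315414 (minus), Tnfrsf18 chr4:156026072-156026321 (plus) and Tnf chr17:35202008-35202257 (minus). Capitals mark an AP-1 motif.
Fasl: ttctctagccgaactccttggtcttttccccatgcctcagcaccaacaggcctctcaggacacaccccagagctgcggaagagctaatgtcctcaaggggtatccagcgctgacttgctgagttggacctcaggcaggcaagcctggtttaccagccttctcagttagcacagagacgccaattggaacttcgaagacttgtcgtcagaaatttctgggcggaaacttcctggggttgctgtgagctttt
Tnfrsf8: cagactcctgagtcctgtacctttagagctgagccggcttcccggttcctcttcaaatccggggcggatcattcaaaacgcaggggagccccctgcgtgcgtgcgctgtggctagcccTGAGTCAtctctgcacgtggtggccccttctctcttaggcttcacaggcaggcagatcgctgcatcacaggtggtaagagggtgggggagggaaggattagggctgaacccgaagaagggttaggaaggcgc
Tnfrsf18: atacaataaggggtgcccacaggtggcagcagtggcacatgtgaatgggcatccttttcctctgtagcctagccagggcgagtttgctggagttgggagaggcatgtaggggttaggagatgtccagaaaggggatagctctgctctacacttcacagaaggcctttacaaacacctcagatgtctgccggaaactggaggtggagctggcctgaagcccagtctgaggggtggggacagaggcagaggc
Tnf: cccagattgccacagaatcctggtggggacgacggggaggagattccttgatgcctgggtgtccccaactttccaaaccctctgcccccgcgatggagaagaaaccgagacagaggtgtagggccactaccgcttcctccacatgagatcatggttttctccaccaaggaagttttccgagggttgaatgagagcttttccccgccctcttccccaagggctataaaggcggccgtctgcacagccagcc
The called peaks overlapped 137, 239 and 250 of these bases at Fasl, Tnfrsf8 and Tnfrsf18, and the Tnf peak covered all 250. Windows of 300 bases reaching 50 bases past the start site were searched on both strands for NF-kB (GGGA, any base, TTTCC), AP-1 (TGANTCA), PU.1 (GAGGAAGT) and ISRE (GAAA, any pair of bases, GAAA). In the windows of the 4 genes shown, only the AP-1 letters in Tnfrsf8 matched. Over the 43 windows of the 39 members with an entry, 1 held the NF-kB letters, 7 AP-1, 3 PU.1 and 4 ISRE, beside 0.411%, 7.81%, 3.20% and 3.44% of all 32851 promoter windows. A match describes the letters and not binding.

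**Figure D4:**
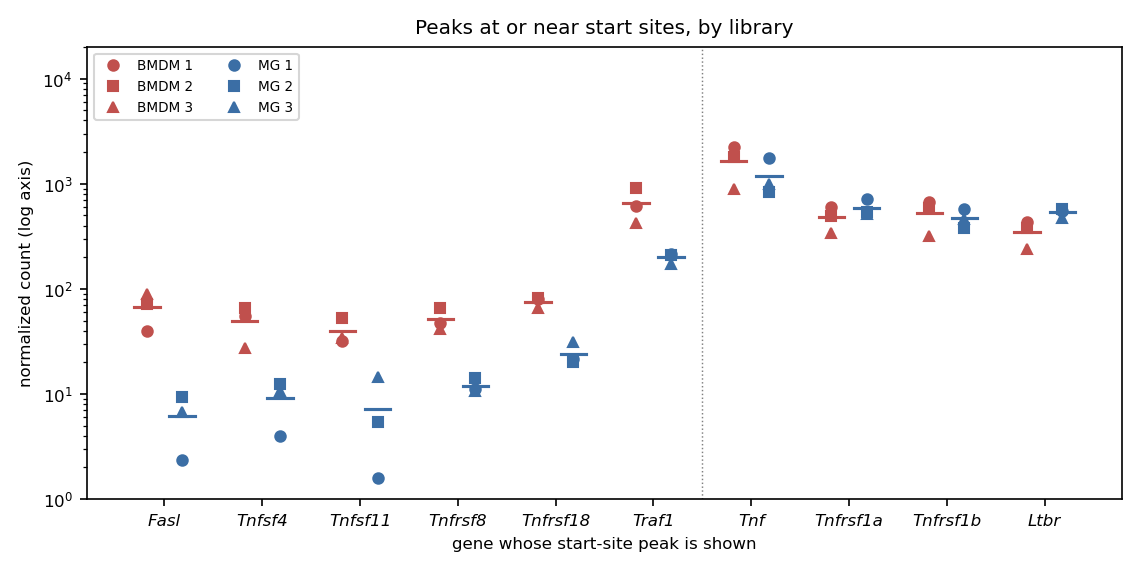
Normalized counts (log axis) per library at peaks at or near the start sites of 10 members, with BMDM left of MG for each gene and bars at the group means; the Tnfsf11 peak lies 607 bases downstream and the Traf1 peak 1066 bases upstream. For the 6 genes left of the dotted line the called peak nearest the start site was chosen, and in these all BMDM libraries lie above all MG libraries. This separation follows from that choice. For the 4 genes to its right, which had no called peak near the start site, the largest peak over it is shown.

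Of the remaining receptors, Tnfrsf1a, which encodes the death domain receptor TNFR1, held 1861, 1601 and 1049 counts in BMDM, against 1483, 1289 and 1095 in MG (0.46 ± 0.31, adjusted p = 0.746). Cd40, a receptor for T cell help on antigen-presenting cells, held 1020, 1462 and 649 counts in BMDM, against 647, 741 and 537 in MG (0.91 ± 0.32, adjusted p = 0.252). Fas held 690, 627 and 475 counts in BMDM, against 521, 398 and 379 in MG (0.73 ± 0.28, adjusted p = 0.352). In each of these 3 genes BMDM 3 lay within or below the range of the MG libraries. Tnfrsf4, which encodes OX40, the receptor of the Tnfsf4 product, had 1 small peak at its start site. It held 39.7, 37.6 and 19.9 counts in BMDM, against 3.97, 12.6 and 9.72 in MG, without overlap. Before the shift to the median gene its difference was 1.84 ± 0.66, the largest of the receptors, with an adjusted p of 0.113. Tnfrsf10b, the mouse TRAIL receptor, differed by 1.01 ± 0.31 without overlap (adjusted p = 0.17), Tnfrsf9, encoding 4-1BB, by 0.48 ± 0.30 with overlap (adjusted p = 0.704) and Tnfrsf11a, encoding the RANKL receptor RANK, by 0.01 ± 0.29 (adjusted p = 0.621).

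The relative difference was negative for 8 of 25 receptors, and none was called in the fit with all libraries and all peaks within 100 kb. Ltbr, the lymphotoxin beta receptor, had 1 peak at its start site with 432, 376 and 239 counts in BMDM, against 556, 575 and 471 in MG. Every MG library was above every BMDM library, with a relative difference of -0.38 ± 0.29 (adjusted p = 0.203). Ngfr, the p75 neurotrophin receptor, differed by -0.13 ± 0.31 as a gene (adjusted p = 0.476). Its promoter-class peak 885 bases downstream of the start site held 43.6, 59.6 and 29.0 counts in BMDM, against 96.0, 114 and 99.1 in MG, without overlap (-1.12 ± 0.35, adjusted p = 0.0573).

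Tnfrsf11b, Tnfrsf13c and Tnfrsf19 had the largest differences toward MG, and in all 3 genes MG 1 lay within or below the range of BMDM. Tnfrsf11b encodes osteoprotegerin, the soluble decoy for RANKL. Its count was 25.8, 35.0 and 76.1 in BMDM, against 21.4, 402 and 152 in MG (-1.13 ± 0.73, adjusted p = 0.277). Without MG 1 the difference was -2.37 (adjusted p = 6.14e-09), and against MG 1 alone it was 1.28. Tnfrsf13c encodes the BAFF receptor. Its count was 173, 231 and 250 in BMDM, against 201, 737 and 431 in MG (-0.62 ± 0.38, adjusted p = 0.183), and without MG 1 the difference was -1.20 (adjusted p = 0.000466). Tnfrsf19, the receptor TROY, held 155, 214 and 254 counts in BMDM, against 147, 685 and 389 in MG (-0.47 ± 0.43, adjusted p = 0.33), and without MG 1 the difference was -1.15 (adjusted p = 0.000785). The oligodendrocyte-lineage markers had the same order of MG libraries: Olig1 held 183, 211 and 312 counts in BMDM, against 269, 3587 and 1783 in MG, and Sox10 held 37.7, 55.7 and 83.3 in BMDM, against 65.1, 1102 and 518 in MG. Their part in the Tnfrsf11b, Tnfrsf13c and Tnfrsf19 values was not tested. These 3 were the members called higher in MG when MG 1 was left out, beside 2246 of all 18246 genes. That gene fit had 54740 total degrees of freedom, against 16.95 with all libraries, so its p-values hardly use a gene's own spread. With all libraries, Tnfrsf11b was called higher in MG with promoter peaks only (-1.79, adjusted p = 0.00142) and with peaks within 10 kb (-1.81, adjusted p = 0.0411). Tnfrsf19 was called with promoter peaks only (-0.87, adjusted p = 0.0138). The fit of promoter peaks only had 19090 total degrees of freedom, with the same limit. In the peak fit the start-site peaks of Tnfrsf11b (-1.96, adjusted p = 0.149) and Tnfrsf19 (-0.98, adjusted p = 0.0926) were not called.

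**Figure D5:**
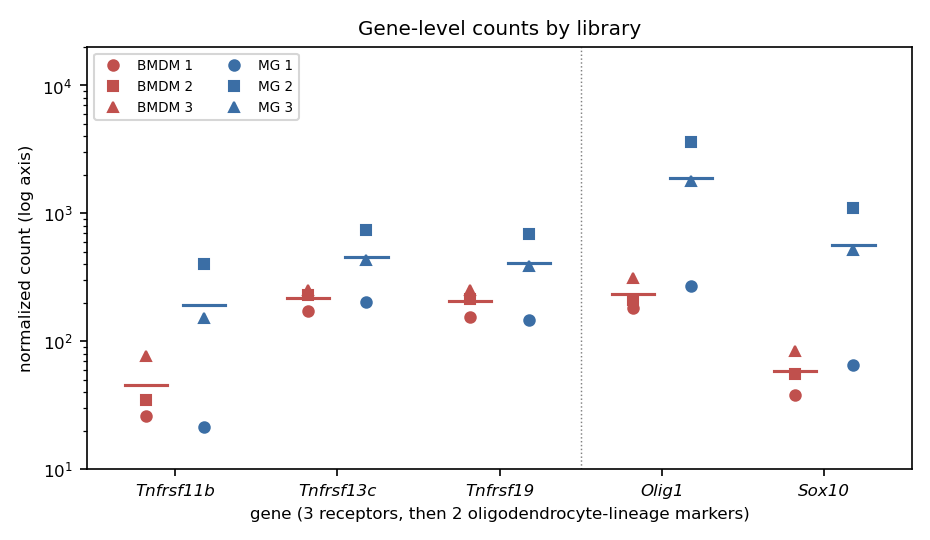
Gene-level normalized counts (log axis) per library of Tnfrsf11b, Tnfrsf13c and Tnfrsf19 and of the oligodendrocyte-lineage markers Olig1 and Sox10, with BMDM left of MG and bars at the group means. In all 5 genes MG 2 is highest, MG 3 next among MG libraries, and MG 1 lies within or below the range of BMDM.

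Among the adaptors no gene was called, at an unadjusted p under 0.05 1 was higher and 0 lower in BMDM, and 2 had a called peak. Traf1, an adaptor whose gene is itself a known NF-kB target, held 3468, 3713 and 1958 counts over 9 peaks in BMDM, against 2218, 1511 and 1604 in MG (1.01 ± 0.35, adjusted p = 0.223). BMDM 3 lay below MG 1. The promoter-class Traf1 peak 1066 bases upstream held 619, 908 and 426 counts in BMDM, against 215, 210 and 172 in MG, with no overlap (1.78 ± 0.34, adjusted p = 0.0298). The peak over an annotated Traf1 start site was not called (1.42 ± 0.36, adjusted p = 0.0583). With promoter peaks only, the Traf1 gene difference was 1.73 (adjusted p = 0.00157), in a fit whose p-values hardly use a gene's own spread. Traf3, an inhibitor of alternative NF-kB signalling, differed by 0.37 ± 0.36 as a gene (adjusted p = 0.897), while an intronic peak 6290 bases downstream held 87.3, 81.6 and 45.3 counts in BMDM, against 28.6, 23.0 and 21.4 in MG (1.61 ± 0.38, adjusted p = 0.0462). Traf2, the main adaptor of TNFR2, held 1986, 1813 and 1120 counts in BMDM, against 1609, 1656 and 1348 in MG, and the groups overlapped (0.33 ± 0.31, adjusted p = 0.935). Traf4 was the one adaptor with all MG libraries above BMDM (-0.29 ± 0.28, adjusted p = 0.262).

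Of the 30 called peaks, in 13 genes, 15 were intergenic, 7 intronic and 8 of the promoter class. By class these were 15 of 110 intergenic, 7 of 72 intronic and 8 of 82 promoter peaks of the members, beside 6.28%, 6.78% and 3.04% of all peaks of these classes. Over all tested member peaks the median relative difference was 0.56, every BMDM library was above every MG library at 100 of 287 peaks, beside 17% of all peaks in the table, and the opposite held at 15 of 287, beside 12.9% of all peaks. The authors' deposited table lists 63 of the 291 member peaks with an adjusted p under 0.05 toward BMDM and 4 toward MG, beside 9.06% and 5.38% of all its peaks, and all 30 peaks above are among the 63. After centring, 47 member peaks were called higher in BMDM, including all 30, beside 7.73% of all peaks, and none higher in MG, beside 1.17%. No member peak was called without BMDM 1, BMDM 2 or MG 3, nor under voom, settings under which no peak of the whole table was called, although 14430 to 21048 had an unadjusted p under 0.05. Without MG 1, 71 member peaks were higher in BMDM and 19 in MG, beside 10603 and 11278 of all 87944 peaks.

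Genes of the signalling machinery below the receptors were counted from a separate list. Of 51 intermediates such as kinases, NF-kB subunits and their inhibitors, 49 had a tested gene count. None was called in either direction with limma-trend or voom. At an unadjusted p under 0.05, 2 were higher and 2 lower in BMDM, beside 3992 of all 18246 genes in either direction. The median relative difference was 0.24, with 41 above 0 and 8 below. Tnip3, an inhibitor of NF-kB activation, came closest, with 1.25 ± 0.29 (adjusted p = 0.0587 before centring and 0.0207 after). Ripk3, the kinase of necroptosis, differed by 1.09 ± 0.32 with every BMDM library above every MG library (adjusted p = 0.141). This order held for 2 of the 49, beside 6.87% of all genes. The opposite order held for 3, Map3k7, Tab1 and Chuk, beside 21.5% of all genes. They differed by -0.23, -0.42 and -0.45 (adjusted p = 0.318, 0.172 and 0.156). Tnfaip3, Birc3 and Nfkb1, which are known NF-kB targets, differed by 0.58, 0.71 and 0.52 with overlapping groups. The other NF-kB subunit genes, Nfkb2, Rela, Relb and Rel, differed by 0.17, 0.24, 0.27 and 0.16, also with overlap. The superfamily members with other symbols, Eda, Eda2r and Relt, differed by -0.07, -0.21 and 0.36, and none was called.

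Markers of other leukocytes are given beside these genes because T and NK cells are also known to use Fasl, Tnfsf14, Tnfsf8 and Tnfrsf18. None of 12 tested T, NK and B cell markers was called (5 higher and 0 lower in BMDM with unadjusted p under 0.05) and 3 passed after centring. Their median relative difference was 0.54, with 11 above 0 and 1 below. Every BMDM library lay above every MG library for 4 of them, beside 6.87% of all genes. The opposite order held for 0, beside 21.5%. Their summed count was 4920 to 7995 in BMDM, against 6090 to 7296 in MG. Klrb1c, the 1 below 0, had the largest counts, with 2914, 3074 and 1719 in BMDM, against 3971, 2938 and 2857 in MG. Cd3e, of the T cell receptor complex, held 123, 163 and 88.8 counts in BMDM, against 53.9, 56.8 and 41.8 in MG (1.52 ± 0.38, adjusted p = 0.0611 before centring and 0.0276 after). None of 7 neutrophil markers was called (4 higher and 0 lower with unadjusted p under 0.05), and 1, Ltf, passed after centring (adjusted p = 0.0466). Their median relative difference was 1.10, and their summed count was 1862 to 2863 in BMDM, against 1560 to 2178 in MG. Of 8 dendritic cell markers none was called (1 higher and 0 lower with unadjusted p under 0.05). Of 7 endothelial markers Erg was called higher in BMDM and Cldn5 higher in MG, but Cldn5 was not called after centring (adjusted p = 0.0833). No marker with a peak was at 0 in all 6 libraries, and the part of these cells in the member differences was not tested.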

How the data were processed

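ATAC-seq was done on 3 BMDM and 3 MG libraries, grouped and numbered by their labels. Per the labels' protocols, a Nextera Tn5 kit tagmented the DNA of lysed cells, which was then PCR amplified. The submitters' processing notes name build mm10 and, in no stated order, DESeq2 1.36.0, ChIPseeker 1.32.1, MACS2 2.1.1.20160309, Bowtie2 2.4.1 and cutadapt 1.8.1. Settings, read shifting and duplicate removal are not given there. The deposited table holds log2 values per library, stabilized in variance by the authors, with the authors' log2 fold change, mean normalized signal and p-values (raw and adjusted) per peak. The deposited peak lists, 1 per library, hold a −log10 q per peak that the authors' peak caller gave and that served only to filter within a list. In the table, 8 further per-sample columns belong to no sample here and were left out. Its 93084 lines gave 92864 distinct, annotated peaks after removal of 155 repeats and 65 peaks without annotation.

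Normalized counts were recovered by inverting the stabilization; their means departed from the deposited means by a relative error of at most 2.37e-06, and reads were whole within 0.02 read for 100% of peaks in each library. limma 3.58.1 (R 4.3.3) with a trend was fitted to log2(normalized count + 1) of all peaks and of gene sums (peaks within 100 kb of the start site) with a mean of at least 10, two-sided, with Benjamini-Hochberg adjustment over all features and a threshold of 0.05. Summing and filtering used Python 3.11.15 and pandas 2.3.3. The fit was tested on simulated data. Full values are given for members past the threshold, members with a called peak, a set of central members and the 5 largest differences each way. The members, gene lists and rules were chosen with earlier results of these data known. Alternatives were other normalizations, pseudocounts, filters, gene windows, voom, robust moderation, a replicate block and leaving out each library.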

Additional observations from a re-analysis of the deposited data

How the results depend on the processing

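The count of member genes called higher in BMDM, 3, was 10 with TMM factors, 10 with library totals, 14 with cyclic loess, 9 after centring, 5 with robust moderation, 8 with peaks within 10 kb, 11 with promoter peaks only, and 0 to 7 with a library left out. Member genes higher in MG, 0, numbered 1 within 10 kb, 2 with promoter peaks and 0 to 3 with a library left out. Of all 18246 genes, 391 were higher in BMDM. These numbered 729 with TMM, 559 with totals, 1117 with loess, 658 after centring and 542 with robust moderation. They were 443 of 16802 within 10 kb, 419 of 15249 with promoter peaks and 0 to 730 with a library left out. All genes higher in MG, 640, numbered 1044 within 10 kb, 1397 with promoter peaks and 0 to 2246 with a library left out. Member peaks higher in BMDM, 30, numbered 49 with TMM, 50 with totals, 55 with loess, 47 after centring, 54 with MG 1 as the only MG library, 0 under voom, 63 in the authors' deposited table and 0 to 71 with a library left out. Member peaks higher in MG, 0, numbered 2 with loess, 1 with a pseudocount of 5, 1 with robust moderation, 1 with MG 1 alone, 4 in the authors' table and 0 to 19 with a library left out. Intermediates higher in BMDM, 0, numbered 3 with TMM, 2 with totals, 5 with loess, 1 after centring, 1 with robust moderation, 1 with promoter peaks and 0 to 2 with a library left out, and those higher in MG, 0, numbered 2 with loess. Of all 87944 peaks, 4687 were higher in BMDM. These numbered 7248 with TMM, 6992 with totals, 6950 with loess, 6801 after centring and 0 to 10603 with a library left out. All peaks higher in MG, 1352, numbered 2305 with loess, 1402 with a pseudocount of 5, 1466 with robust moderation and 0 to 11278 with a library left out. The causes were not tested.

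With the replicate number as a block, 10 member genes and 65 member peaks were called higher in BMDM. In MG 2 genes (Tnfrsf11b and Tnfrsf13c) and 5 peaks were called higher, and 2 intermediates were called each way. Of all 18246 genes, 912 were then higher in BMDM and 2333 in MG. Of all 87944 peaks, 9212 were higher in BMDM and 5215 in MG. Same-numbered libraries correlated in their deviations over genes by 0.55, -0.16 and 0.45, so the numbers are not shown to pair them. The gene fits with a block, with promoter peaks only, or without MG 1 or MG 2 had 19090 to 54740 total degrees of freedom. Their p-values hardly use a gene's own spread.

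No called gene or peak changed sign under any alternative. In each of them every BMDM library lay above every MG library, so leaving out libraries could not reverse the unshifted difference. Among the 32 named genes, 7 uncalled ones changed sign in 19 values: Ngfr, Tnfrsf11a, Tnfrsf11b, Tnfrsf13c, Tnfrsf19, Tnfsf13b and Traf4. Reads in peaks ranged from 4910448 to 23601865, and with 3 libraries a group a member that was not called is not shown to be equal between the groups.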
